A study of Rattus norvegicus with 13 samples.

Results

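The genes described here encode the alpha and beta tubulins, measured by RNA-Seq in the posterior ventricular zone (VZ) of newborn rats. The members were picked by name: of 10 listed tubulin genes, 9 had a row in the deposited table, namely *Tuba1b*, *Tuba1c*, *Tuba4a*, *Tubb2a*, *Tubb2b*, *Tubb3*, *Tubb4a*, *Tubb4b* and *Tubb5*. Each had 1 row, and the table holds 14716 rows in all. Expression of *Tuba1a*, the main alpha tubulin gene of newly born neurons, was not analysed here, and only its promoter was read. The animals were Long Evans males taken on postnatal day (PN) 2, 1 per litter, so each pup stands for its own litter. The control group (n = 7) came from dams that drank water without drug (0 ppm). The PTU exposed group (n = 6) came from dams given 3 ppm propylthiouracil (PTU), an inhibitor of thyroid hormone synthesis, in the drinking water through gestation and lactation, and these pups were hypothyroid. The VZ is the layer of radial glia and other progenitors that lines the lateral ventricle, and it was cut out by laser capture on the basis of its pseudostratified look. The study asked whether this layer responds to thyroid hormone in the newborn.

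Microtubules are hollow polymers of tubulin dimers, each made of an alpha and a beta chain. Vertebrates carry several genes for both chains, called isotypes, whose proteins differ mainly in the tail that faces outward and carries most of the enzymatic modifications. Radial glia depend on microtubules for spindles, for cilia and for the long process along which young neurons migrate, and mutations of *TUBA1A*, *TUBB2B* and *TUBB3* in people cause malformations of the cortex. *Tubb3* is the classic tubulin of neurons, *Tubb4a* is mostly a brain gene, *Tubb4b* is prominent in cilia, and *Tubb5*, *Tuba1b* and *Tuba1c* are broadly expressed.

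The start regions of 4 members are shown because 3 of them had the smallest unadjusted p-values of the family (*Tubb2b*, *Tubb4a* and *Tuba1b*) and the fourth, *Tubb4b*, had the smallest difference between the groups. Each line gives the 250 bases before the annotated start of the gene from RefSeq (build GRCr8), written 5′ to 3′ on the strand of the gene. Capitals mark matches to 4 short motifs. These are the CCAAT box, the GC box with its core GGGCGG, the TATA box in the form TATAAA, and AGGTCA, the core element that nuclear hormone receptors bind. A match on the opposite strand appears as its reverse complement.
Tubb2b (chr17:30952836-30953085, strand +): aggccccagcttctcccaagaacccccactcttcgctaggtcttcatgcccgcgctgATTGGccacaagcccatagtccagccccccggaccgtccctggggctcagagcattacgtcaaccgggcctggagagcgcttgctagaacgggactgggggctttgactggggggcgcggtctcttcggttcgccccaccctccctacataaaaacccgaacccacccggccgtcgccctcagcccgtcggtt
Tubb4a (chr9:2012282-2012531, strand -): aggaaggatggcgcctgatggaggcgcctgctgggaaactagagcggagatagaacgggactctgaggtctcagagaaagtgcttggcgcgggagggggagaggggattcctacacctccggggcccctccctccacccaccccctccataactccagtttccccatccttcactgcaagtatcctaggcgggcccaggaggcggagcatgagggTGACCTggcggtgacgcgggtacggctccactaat
Tuba1b (chr7:131972588-131972837, strand -): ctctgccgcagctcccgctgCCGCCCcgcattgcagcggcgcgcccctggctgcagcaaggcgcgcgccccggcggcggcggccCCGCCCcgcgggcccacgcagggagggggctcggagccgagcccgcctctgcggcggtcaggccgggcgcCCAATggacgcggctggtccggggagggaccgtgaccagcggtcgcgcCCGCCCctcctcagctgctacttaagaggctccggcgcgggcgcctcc
Tubb4b (chr3:28438456-28438705, strand -): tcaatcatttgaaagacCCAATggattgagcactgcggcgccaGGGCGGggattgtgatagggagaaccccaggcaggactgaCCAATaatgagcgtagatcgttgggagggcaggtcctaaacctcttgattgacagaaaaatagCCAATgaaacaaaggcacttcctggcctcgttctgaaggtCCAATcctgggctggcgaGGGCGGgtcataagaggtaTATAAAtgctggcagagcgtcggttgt
No motif searched was held by all of these 4 windows. *Tubb4b* had 4 matches to CCAAT, 2 to GGGCGG and a TATAAA that began 27 bases before the start. *Tuba1b* had 3 matches to GGGCGG and 1 to CCAAT, in a window of 80.4% G and C, against a median of 52% over all 27457 promoters. *Tubb2b* had a single CCAAT, on the opposite strand, and *Tubb4a* a single AGGTCA, also on the opposite strand, beginning 35 bases before the start. Of the 10 listed tubulin promoters, 7 held CCAAT, which 34.3% of all promoters of this length held. GGGCGG was found in 8 of the 10 and in 32.4% of all promoters. TATAAA was found in 2 of the 10 (*Tubb2a* and *Tubb4b*) and in 13.1% of all, and AGGTCA in 1 of the 10 (*Tubb4a*) and in 13.7% of all. Matches were counted on both strands, the 4 motifs do not contain each other, and a match describes these letters only.

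The values are the authors' normalized counts. Depth, estimated from the spacing of low values, was 22.3 to 43.5 M reads (M, mega) in control pups and 28.4 to 44.4 M reads in PTU exposed pups. That spacing held for 88.1 to 89.7% of low values, under the 95% set for recovering reads, so these depths are approximate. A group of 3 unnamed rows took 32.4 to 60.1% of the normalized counts in control pups and 23.9 to 57% in PTU exposed pups. Defining markers of the captured layer were present in every pup: the 8 radial glia markers (such as *Sox2*, *Pax6* and *Vim*) summed to 73699 to 102847 normalized counts in controls and 61169 to 80981 with PTU. Transcripts of neighbouring tissue were present too. The 14 neuron markers (such as *Snap25* and *Gap43*; no tubulin is among them) summed to 15465 to 26863 in controls and 21202 to 51644 with PTU, with the highest sum in PTU pup 1. Choroid plexus, the fringe of secretory tissue inside the ventricle, was not part of the sequenced material according to the study. The 7 choroid plexus markers (such as *Ttr*) summed to 48424 to 136756 in controls and 22544 to 96257 with PTU. No marker of these 3 lists was at 0 in any pup. The replicate numbers of the pups do not join litters of the 2 groups. Because the tissue was measured in bulk, fewer cells of a type and less RNA per cell cannot be told apart.

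Tubulin transcripts tended to have higher normalized counts in the PTU exposed VZ, but no member passed the test after adjustment over all rows. Of the 9 members, 7 had a positive log2 fold change (PTU minus control) and 2 a negative one, with a median of 0.29 against 0.00 over all 14606 rows tested. At an unadjusted p under 0.05, 4 members were higher (*Tubb2b*, *Tubb4a*, *Tuba1b* and *Tubb3*), beside 8.11% of all rows, and 0 were lower, beside 8.2%. With Benjamini-Hochberg adjustment in limma, 0 of 14606 rows (0%) passed 0.05, and the adjusted p of the members ranged from 0.174 to 0.814. The study's own comparison of these pups used another method and did call genes, with *Tubb2b* and *Tubb4a* reported as higher. At an unadjusted p under 0.05, 1185 rows were higher and 1198 lower over the whole table. The groups overlapped for every member, and 0.596% of all rows had groups that did not overlap. Under quantile normalization 4 members also had an unadjusted p under 0.05, with *Tubb5* in place of *Tubb3*. The count of 4 members was 2 without control pup 1 and 2 without PTU pup 1 (*Tubb2b* and *Tubb4a* in both). It was 2 with a score of neuron markers as a covariate (the same 2) and 1 with a score of choroid plexus markers (*Tuba1b*), where *Tubb2b* and *Tubb4a* had unadjusted p-values of 0.0625 and 0.0822. Of all 14606 rows, 1170 were higher at this level without control pup 1 and 970 without PTU pup 1. With the neuron score 796 rows were higher, and with the choroid plexus score 1014.

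**Figure D1:**
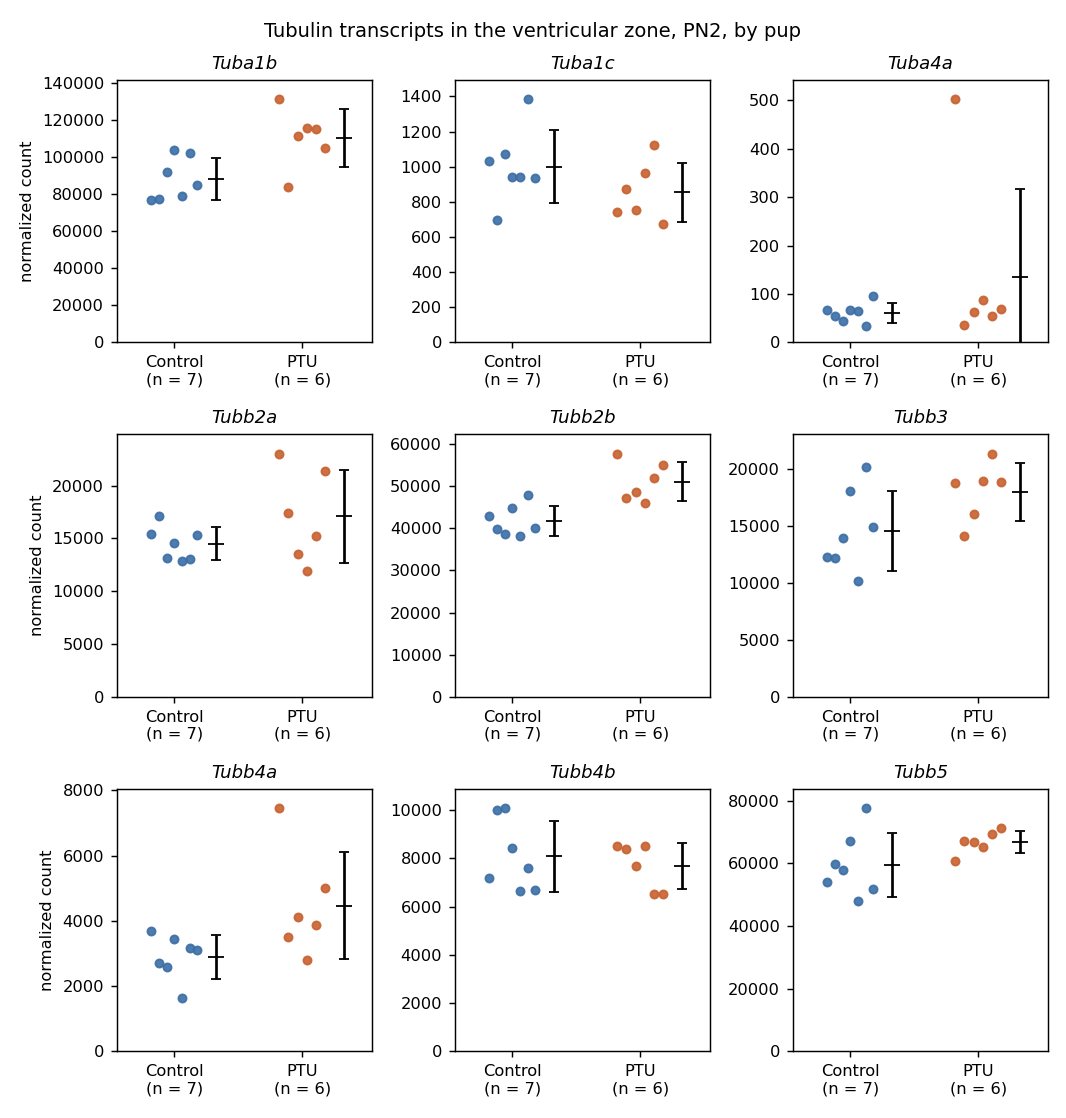
Normalized count (vertical axes, each from 0) of the 9 tubulin transcripts in each of the 7 control (blue) and 6 PTU exposed (orange) pups; the dash and bar beside the points are the mean and SD, and the lower end of the bar for *Tuba4a* under PTU falls below 0 and is not drawn. For *Tubb2b* the 6 PTU exposed pups begin at 45937, above 6 of the 7 controls, whereas for *Tuba4a* a single PTU exposed pup at 502 stands apart.

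Among the beta tubulins, *Tubb2b*, a beta chain of young neurons and radial glia, had the smallest p. Its normalized counts in controls had a lowest value of 38114, a median of 40032 and a highest of 47908. In PTU exposed pups the lowest was 45937, the median 50243 and the highest 57661. All 6 PTU exposed pups were above the control median, 4 were above every control, and 1 control pup reached into the PTU range. The means were 41733 ± 3603 (SD, n = 7) and 51023 ± 4622 (SD, n = 6), a 1.22-fold difference (log2 fold change 0.29, SE 0.10, 95% interval 0.09 to 0.49, unadjusted p = 0.00719, limma adjusted p = 0.174). For this gene alone, an exact permutation test (1716 regroupings, two-sided) gave p = 0.00291. *Tubb2b* was also the least variable member among control pups, with a coefficient of variation of 8.63%.

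*Tubb4a*, a beta chain found mostly in neurons and oligodendrocytes, had the second smallest p of the beta chains. In controls its normalized counts had a lowest value of 1642, a median of 3102 and a highest of 3679. In PTU exposed pups the lowest was 2798, the median 4003 and the highest 7452. PTU pup 1 held the highest value and PTU pup 6 the next (5019), and 4 of 6 PTU exposed pups were above every control. The means were 2904 ± 672 (SD, n = 7) and 4463 ± 1636 (SD, n = 6) (log2 fold change 0.59, SE 0.20, 95% interval 0.16 to 1.01, unadjusted p = 0.00927, limma adjusted p = 0.178, exact permutation p = 0.0221). Without PTU pup 1 the log2 fold change was 0.43 (SE 0.17).

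*Tubb3*, the beta chain used as a marker of neurons, was spread more widely in the controls. Its normalized counts there had a lowest value of 10169, a median of 13929.5 and a highest of 20201. In PTU exposed pups the lowest was 14074, the median 18784 and the highest 21331, so all 6 were above the control median but only 1 was above every control. The log2 fold change was 0.33 (SE 0.14, 95% interval 0.03 to 0.63, unadjusted p = 0.0337, limma adjusted p = 0.273), while the exact permutation test gave p = 0.0664. Its unadjusted p was under 0.05 in 14 of 26 alternative settings, and was 0.068 under quantile normalization.

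*Tubb2a*, *Tubb5* and *Tubb4b* had unadjusted p-values above 0.05 with the authors' scaling. *Tubb2a*, a close paralog and chromosomal neighbour of *Tubb2b*, ranged from 12855 to 17133 (median 14540.4) in controls and from 11877 to 23029 (median 16315) with PTU. The PTU group thus held both the lowest and the highest *Tubb2a* value of the 13 pups, and its log2 fold change was 0.20 (95% interval -0.09 to 0.49). This value depended on single pups: it was 0.11 without PTU pup 1, 0.13 without PTU pup 6 and 0.30 (unadjusted p = 0.0306) without PTU pup 4, and 0.06 with a score of neuron markers as a covariate. *Tubb5*, a beta chain of dividing and many other cells, ranged from 48039 to 77610.3 (median 57812) in controls and from 60741 to 71226 (median 67086) with PTU. All 6 PTU exposed pups lay within the range of the controls and above their median, with a coefficient of variation of 5.42% against 17% in controls, and the log2 fold change was 0.18 (95% interval -0.06 to 0.43). Under quantile normalization it was 0.38 (unadjusted p = 0.00627, limma adjusted p = 0.166), and without control pup 6, the highest control, 0.25 (unadjusted p = 0.0323). It was 0.13 (unadjusted p = 0.256) without control pup 5, the lowest control, and 0.05 (unadjusted p = 0.667) with the choroid plexus score as a covariate. *Tubb4b*, a beta chain abundant in ciliated cells, ranged from 6633 to 10077 (median 7614) in controls and from 6504 to 8493 (median 8023) with PTU. Its log2 fold change was -0.07 (95% interval -0.31 to 0.18, unadjusted p = 0.579), so its direction was not resolved. Under scaling to an equal total per pup it was 0.14, where the median of all rows was shifted to 0.20, so that it lay below that median there too.

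Among the alpha tubulins, *Tuba1b*, a broadly expressed alpha chain, had the smallest p. In controls its normalized counts had a lowest value of 76797, a median of 85167 and a highest of 103585. In PTU exposed pups the lowest was 84046, the median 113076 and the highest 131227. PTU pup 2 lay below the control median and the other 5 were above every control. The log2 fold change was 0.32 (SE 0.13, 95% interval 0.05 to 0.60, fold 1.25, unadjusted p = 0.0244, limma adjusted p = 0.244, exact permutation p = 0.0163). Without PTU pup 1 the unadjusted p was 0.0587, and without PTU pup 2 it was 0.00649. Under quantile normalization the log2 fold change was 0.56 (SE 0.20, unadjusted p = 0.012, limma adjusted p = 0.194).

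*Tuba1c*, a closely related alpha chain, ranged from 697 to 1384 (median 942) in controls and from 674 to 1121 (median 812) with PTU. Its log2 fold change was -0.22 (SE 0.14, 95% interval -0.53 to 0.08, unadjusted p = 0.139), the lowest of the family. It was -0.31 without control pup 2 (unadjusted p = 0.036) and -0.31 without PTU pup 5 (unadjusted p = 0.0473), and -0.14 without control pup 6. *Tuba4a*, an alpha chain that is encoded without the terminal tyrosine, ranged from 34.4 to 95.7 (median 64) in controls. In PTU exposed pups the lowest was 35.7, the median 66.4 and the highest 502. The value of 502 belonged to PTU pup 1, which was 5.69 times the next PTU exposed pup and 5.24 times the highest control. The other 5 PTU exposed pups had a mean of 62.3 ± 19.3 (SD, n = 5) against 60.9 ± 19.8 (SD, n = 7) in controls. The log2 fold change was 0.55 with all pups (SE 0.46, 95% interval -0.42 to 1.51) and 0.04 without PTU pup 1 (SE 0.30). It ranged from -0.03 with the neuron marker score to 1.04 with the choroid plexus score as a covariate (SE 0.50, unadjusted p = 0.0548).

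PTU pup 1 held the highest value of all 13 pups for 5 of the 9 members (*Tuba1b*, *Tuba4a*, *Tubb2a*, *Tubb2b* and *Tubb4a*), as it did for 17.8% of all rows tested. In 0.781% of all rows its value was over 3 times that of the next pup, against at most 0.0479% of rows for any other pup. It also had the highest neuron marker sum, 51644 normalized counts.

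The alpha chains *Tuba1a*, *Tuba1b* and *Tuba1c* and the pairs of beta chains are close in sequence, and under the authors' count model a read that fits more than 1 transcript is shared out between them. RefSeq names 14 pseudogenes after *Tuba1b*, 5 after *Tuba1c*, 4 after *Tubb4b*, 1 after *Tuba4a* and 0 after the other members with a row. *Tuba1a* is the next coding gene to *Tuba1b*, and a tubulin-like gene, *Tubb2al1*, lies between *Tubb2b* and *Tubb2a*. How reads were split among these copies was not tested, so the values of *Tuba1b*, *Tuba1c*, *Tubb2a* and *Tubb2b* are uncertain to that extent.

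**Figure D2:**
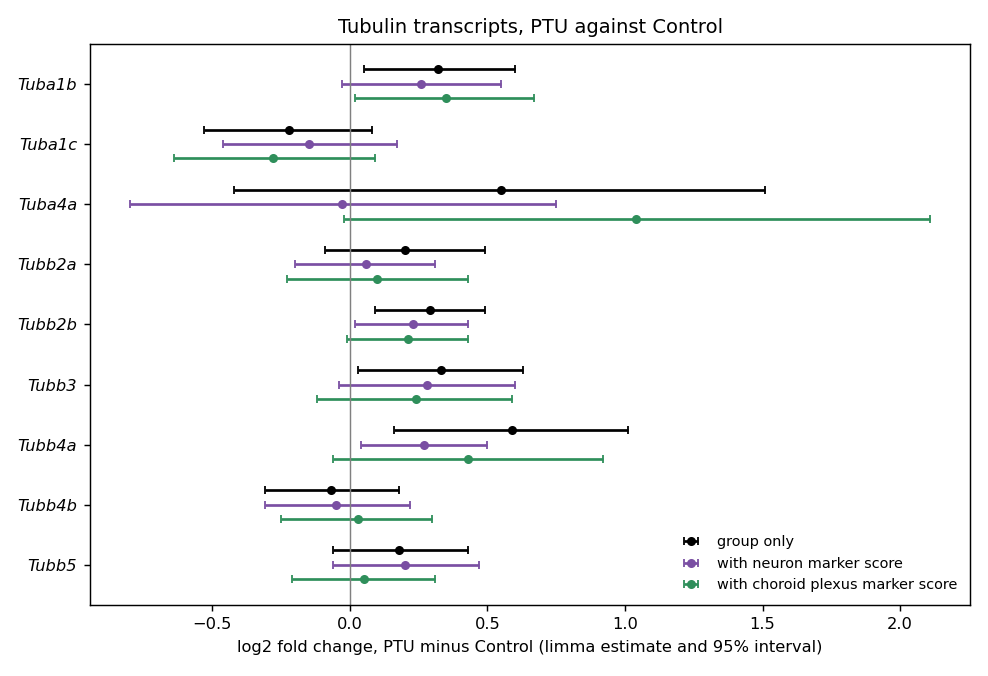
Log2 fold change (PTU minus control, limma) with its 95% interval for each tubulin transcript: fitted on group alone (black), with the neuron marker score (purple) or with the choroid plexus marker score (green) as a covariate. The black intervals of *Tuba1b*, *Tubb2b*, *Tubb3* and *Tubb4a* lie above 0; with the neuron score *Tubb4a* moves from 0.59 to 0.27 and *Tuba4a* from 0.55 to -0.03, and with the choroid plexus score *Tuba4a* moves to 1.04 and *Tubb4a* to 0.43.

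Ratios between members within a pup do not depend on scaling between pups, and transcript length drops out when a ratio is compared between groups. The ratio of *Tuba1b* to *Tuba1c* had a median of 85.9 in controls (range 73.8 to 111) and 134 with PTU (range 96.5 to 177). All 6 PTU exposed pups were above the control median and 4 were above every control, a difference of 0.55 on the log2 scale. The ratio of *Tubb4a* to *Tubb4b* had a median of 0.409 in controls (range 0.248 to 0.511) and 0.567 with PTU (range 0.329 to 0.878), a difference of 0.65. The ratio of *Tubb2b* to *Tubb5* was 0.668 in controls (range 0.617 to 0.793) and 0.737 with PTU (range 0.7 to 0.949), so that all 6 PTU exposed pups exceeded the control median and 1 exceeded every control. The ratio of *Tubb2b* to *Tubb4b* had a median of 5.75 in controls and 6.57 with PTU, a log2 difference of 0.35, with 4 PTU exposed pups above every control. The log2 difference was 0.25 for *Tubb5* to *Tubb4b*, 0.15 for *Tubb3* to *Tubb5*, 0.14 for *Tuba1b* to *Tubb5* and 0.11 for *Tubb2b* to *Tubb5*. *Tubb2b* to *Tubb2a* went from a median of 2.93 to 3.06, and *Tuba1b* to *Tubb2b* from 2.13 to 2.25, a log2 difference of 0.09 and 0.03. Without PTU pup 1 these 2 differences were 0.15 and 0.02, that of *Tubb2b* to *Tubb5* was 0.04 and that of *Tuba1b* to *Tubb5* was 0.06, so the order of the small differences rested on that pup. *Tuba4a* to *Tuba1b* had a log2 difference of 0.23 with all pups and -0.23 without PTU pup 1, and its median was lower with PTU (0.000616) than in controls (0.000698). The 2 groups overlapped in each of the 10 ratios computed, which are given as a description.

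**Figure D3:**
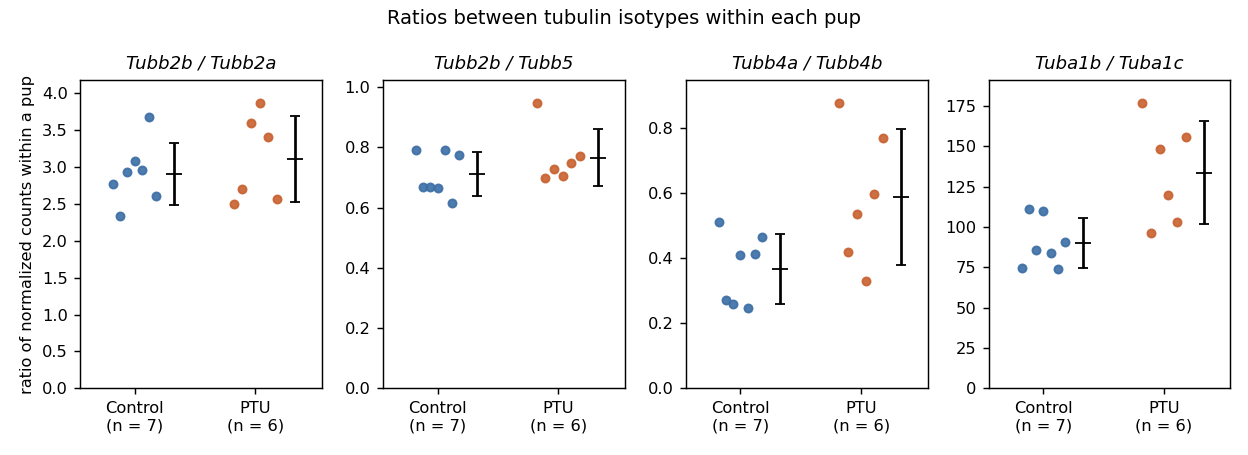
Ratio of the normalized counts of 2 tubulin transcripts within each pup (vertical axes, from 0), in 7 control (blue) and 6 PTU exposed (orange) pups, with mean and SD beside the points. *Tubb4a* to *Tubb4b* and *Tuba1b* to *Tuba1c* each have 4 PTU exposed pups above the highest control; *Tubb2b* to *Tubb2a* has 1.

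The members did not vary from pup to pup as one block. Values centred within each group were correlated over the 13 pups for all 36 pairs of members, and the median Pearson's r was 0.27 (range -0.57 to 0.80). After Benjamini-Hochberg adjustment over the 36 pairs, 2 pairs passed 0.05. *Tubb2b* and *Tubb4a* had r = 0.80 (permutation p = 0.00115, adjusted p = 0.0257) and Spearman's rho = 0.86 (permutation p = 0.00067, adjusted p = 0.0241), and r stayed at 0.80 without the 2 pups farthest from the median of *Tubb2b*. *Tuba1b* and *Tubb3* had r = 0.80 (permutation p = 0.00143, adjusted p = 0.0257) and rho = 0.74 (permutation p = 0.00837, adjusted p = 0.151), with r = 0.84 without the 2 pups farthest in *Tuba1b*. With all pups, *Tubb4b* had r between -0.21 and 0.16 against each of the other members. The range was -0.49 (*Tubb4a*) to 0.22 (*Tubb5*) without the 2 pups farthest in 1 gene of the pair. Without PTU pup 1 it was -0.34 (*Tubb2b*) to 0.22 (*Tubb5*). All pairs share the same libraries and scaling.

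**Figure D4:**
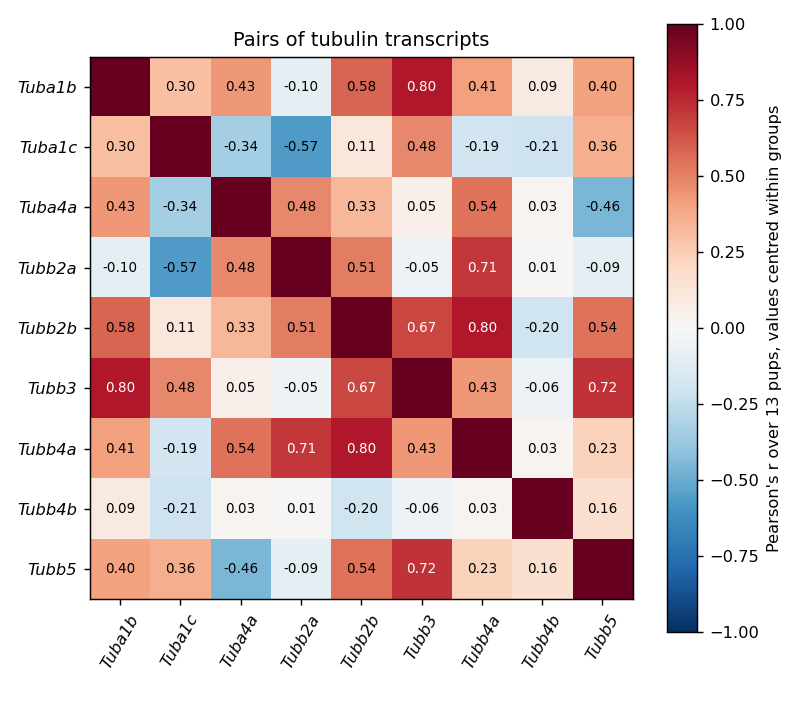
Pearson's r between each pair of the 9 tubulin transcripts over 13 pups, with log2 values centred within groups (colour scale from -1 to 1). *Tubb2b* with *Tubb4a* and *Tuba1b* with *Tubb3* are highest at 0.80, and the row of *Tubb4b* is near 0.

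The members also differed in how they followed the neuron markers from pup to pup. A score was formed as the mean of centred log2 values over the 14 neuron markers, and a second over 7 markers of proliferating cells such as *Mki67*. The neuron score ran from -0.97 to 0.44 in controls and from -0.44 to 1.62 with PTU. *Tubb4a* followed it closely within groups, with r = 0.91 (permutation p = 5e-05, adjusted p = 0.0009 over 18 relations) and rho = 0.91 (permutation p = 0.00013, adjusted p = 0.00234). Without the 2 pups farthest from the median score r was 0.82, and without PTU pup 1 it was 0.85. For *Tubb2a* r was 0.65 (permutation p = 0.0423, adjusted p = 0.127), with rho = 0.63 (permutation p = 0.0463, adjusted p = 0.167) and r = 0.45 without the 2 farthest pups. For *Tubb2b* r was 0.62 (permutation p = 0.0347, adjusted p = 0.125), with rho = 0.69 (permutation p = 0.0183, adjusted p = 0.162) and r = 0.47 without the 2 farthest pups. For *Tubb3*, r was 0.22 (permutation p = 0.443, adjusted p = 0.757), with rho = 0.13 (permutation p = 0.66) and r = 0.39 without the 2 farthest pups. *Tuba4a* had r = 0.74 with the neuron score (permutation p = 0.0148, adjusted p = 0.0671; rho = 0.60, permutation p = 0.036), which rested on the 2 farthest pups, as r was 0.44 without them.

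Against the proliferation score, *Tubb5* had r = 0.71 (permutation p = 0.0149, adjusted p = 0.0671), rho = 0.55 (permutation p = 0.073) and r = 0.53 without the 2 farthest pups. *Tubb4b* had r = 0.47 (permutation p = 0.139, adjusted p = 0.357) and rho = 0.64 (permutation p = 0.0302, adjusted p = 0.162), with r = 0.64 without the 2 farthest pups and 0.67 without PTU pup 1. *Tuba4a* went the opposite way, with r = -0.67 (permutation p = 0.00489, adjusted p = 0.044). Its rho was -0.52 (permutation p = 0.0651, adjusted p = 0.188), and r was -0.64 without the 2 farthest pups. With the neuron score as a covariate, the log2 fold change was 0.23 for *Tubb2b* (SE 0.10, unadjusted p = 0.0316) and 0.27 for *Tubb4a* (SE 0.11, unadjusted p = 0.0231), and these were the 2 members under 0.05. With the choroid plexus score as a covariate, *Tuba1b* was the 1 member under 0.05 (log2 fold change 0.35, SE 0.15, unadjusted p = 0.0368), and *Tubb2b* was at 0.21 (SE 0.10, unadjusted p = 0.0625).

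**Figure D5:**
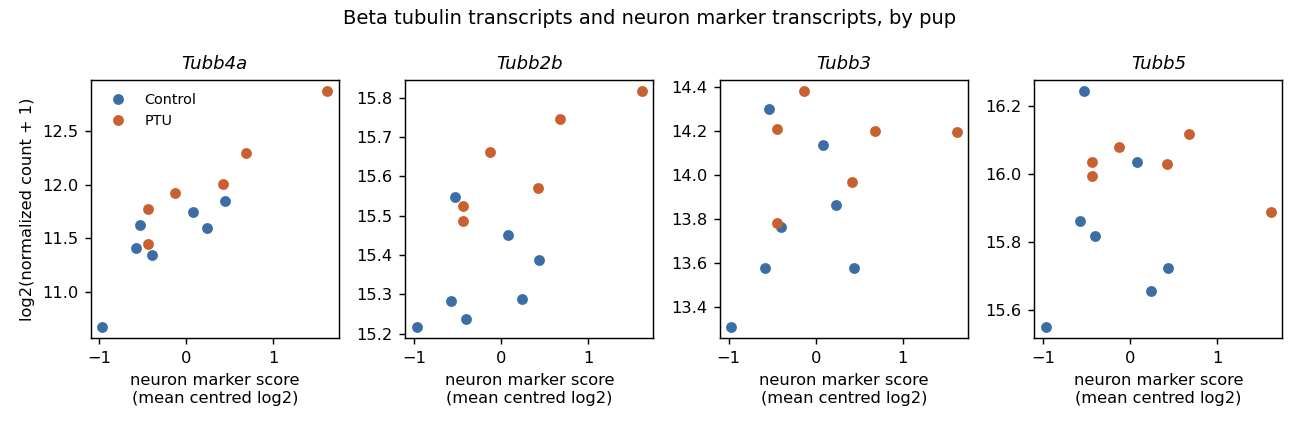
Log2(normalized count + 1) of 4 beta tubulins (vertical axes) against the neuron marker score (horizontal axes, mean centred log2 value of 14 markers) in 7 control (blue) and 6 PTU exposed (orange) pups. *Tubb4a* is higher where the score is higher (r = 0.91 within groups), whereas *Tubb3* does not follow it closely (r = 0.22); the point at a score of 1.62 is PTU pup 1.

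For each member, the named gene with the most similar pattern was taken from 11026 genes with a mean of at least 100, by Pearson's r of values centred within groups over 13 pups. *Tubb4a* was nearest to *Plxna4*, a semaphorin receptor subunit (r = 0.98). *Tubb2b* was nearest to *Bcl11a*, a transcription factor (r = 0.92), and *Tubb2a* to *Atl1*, a shaper of the endoplasmic reticulum (r = 0.95). *Tubb3* was nearest to *Arhgap33* (r = 0.93), *Tubb5* to *Nacad* (r = 0.94) and *Tubb4b* to *Cfap45*, a protein of ciliary microtubules (r = 0.92). Among the alpha chains, *Tuba1b* was nearest to *Fam220a* (r = 0.90), *Tuba1c* to *Fn3krp* (r = 0.92) and *Tuba4a* to *Dock9*, an activator of the GTPase Cdc42 (r = 0.98). *Dock9* shared the high value of PTU pup 1 (2983 normalized counts against at most 1137 in any other pup), and r was 0.94 without that pup. These are the highest of many correlations and are given as a description.

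Genes that act on tubulin were read from lists, each against the 8.11% of all rows that were higher and the 8.2% that were lower at an unadjusted p under 0.05. The stathmins, which bind free tubulin dimers and favour disassembly, were higher in 4 of 4 at that level, with a median log2 fold change of 0.47. *Stmn1*, the stathmin of progenitors and young neurons, ranged from 13414 to 17474 (median 14506) in controls and from 15393 to 26147 (median 21623) with PTU. Its log2 fold change was 0.46 (SE 0.11, unadjusted p = 0.000755, limma adjusted p = 0.122). *Stmn2*, a stathmin of growing axons, had a log2 fold change of 0.48 (SE 0.17, limma adjusted p = 0.182). With the neuron score or the choroid plexus score as a covariate there was 1 stathmin under 0.05, and without PTU pup 1 there were 3. Of all 14606 rows, 796, 1014 and 970 were higher at that level in these fits, against 1185 in the main fit. The median of the list was 0.27, 0.36 and 0.40 in these fits.

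Of the genes that fold or modify tubulin, 7 of 16 were higher and 0 lower at an unadjusted p under 0.05, with a median of 0.10. The list was drawn up with results of these data known, and the study had already reported *Tbcb* and *Tpgs2* as higher in these pups. *Tbcb*, a cofactor that helps fold the alpha chain, ranged from 1230.3 to 1697 (median 1509) in controls and from 1612 to 2883 (median 2141) with PTU. Its log2 fold change was 0.54 (SE 0.12, unadjusted p = 0.000288, limma adjusted p = 0.122). *Tpgs2*, a subunit of the complex that adds glutamate chains to tubulin tails, had means of 828 ± 105 (SD, n = 7) and 1145 ± 166 (SD, n = 6) and a log2 fold change of 0.47 (SE 0.11, limma adjusted p = 0.122). The count of 7 was 4 without PTU pup 1, 3 with the neuron score and 3 with the choroid plexus score as a covariate, while the median log2 fold change of the list was 0.13, 0.10 and 0.13 in these fits. The rows higher over the whole table fell as well, from 1185 to 970, 796 and 1014.

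Of the microtubule-associated proteins, 2 of 11 were higher and 0 lower at that level, with a median of 0.16. These were *Dcx*, the doublecortin of migrating neurons (log2 fold change 0.26, SE 0.10, limma adjusted p = 0.217), and *Mapt*, which encodes tau (0.68, SE 0.27, limma adjusted p = 0.239). *Mapt* spanned 4073 to 19428 normalized counts in PTU exposed pups against 3323 to 6439.6 in controls. The count of 2 was 1 without PTU pup 1 and 0 with either score as a covariate, with a list median of 0.07 without PTU pup 1, 0.06 with the neuron score and 0.07 with the choroid plexus score. Of the microtubule motors, 3 of 14 were higher and 0 lower, with a median of 0.10, among them the axonal kinesins *Kif1a* (log2 fold change 0.27, SE 0.09, limma adjusted p = 0.175) and *Kif5a* (0.67, SE 0.24, limma adjusted p = 0.19). The count of 3 was 3 without PTU pup 1 and 2 with either score as a covariate, and the median of the list was 0.10 without PTU pup 1, 0.07 with the neuron score and 0.05 with the choroid plexus score. For both lists, the rows higher over the whole table were 970 without PTU pup 1, 796 with the neuron score and 1014 with the choroid plexus score.

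Of the severing and tubulin mRNA decay genes, 0 of 6 passed in either direction, with a median of 0.04. They include *Ttc5*, the sensor that triggers decay of tubulin mRNA when free tubulin is in excess, at a log2 fold change of -0.08 (SE 0.12), and the severing enzyme relative *Fignl1* at 0.17 (SE 0.27). Of the gamma-tubulin ring complex, the template for new microtubules, 0 of 8 passed, with a median of 0.00, and the 2 smallest p-values were those of *Mzt1* (0.23, SE 0.13) and *Nedd1* (0.16, SE 0.13). Of the other tubulins, 5 of 10 listed had a row and 1 was higher, namely *Tubg2* (0.59, SE 0.27, limma adjusted p = 0.297), a gamma tubulin that spanned 42.6 to 132 normalized counts in controls and 53.8 to 117 with PTU. Its relative *Tubg1* had a log2 fold change of -0.18 (SE 0.13).

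Markers of cell types within and beside the captured layer were read in the same way. At an unadjusted p under 0.05, 5 of 14 neuron markers were higher (median 0.46), including *Elavl4* and *Gap43*. The neuron score as a whole differed by 0.53 (PTU minus control, exact permutation p = 0.175). PTU pup 1 stood at 1.62 on that score and the next pup, PTU pup 6, at 0.68. Radial glia markers were lower in 5 of 8 (median -0.33), including *Hes1* and *Pax6*, and choroid plexus markers in 4 of 7 (median -0.67), including *Clic6* and *Ttr*. Ependymal markers were lower in 2 of 5 (median -0.42), namely *Cfap126* and *Rsph1*. Of the 5, 4 had a negative log2 fold change, with *Ccdc153* at -0.03, and 1 a positive one (*Tmem212*, 0.27). Intermediate progenitor markers were lower in 1 of 4 (*Eomes*; median -0.31, with *Neurog2* second). Proliferating cell markers were lower in 1 of 7 (*Aurkb*; median -0.01, with *Ccnb1* second), and microglia markers in 1 of 6 (*C1qa*, log2 fold change -0.50; median 0.04), while the second by p, *Cx3cr1*, had a log2 fold change of 0.24. The oligodendrocyte lineage markers were higher in 1 of 6 (*Cspg4*; median 0.24, with *Olig1* second). Of 5 endothelial markers with a row, 0 passed (median 0.11; the smallest p-values were those of *Cdh5* and *Slco1a4*). The part of these cell types in the tubulin values was not tested. The scores of the 2 covariate fits given above come from the same bulk libraries as the members. Those fits therefore cannot separate the number of cells from the RNA per cell.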

How the data were processed

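RNA from the laser captured posterior VZ of 7 control and 6 PTU exposed pups was sequenced from stranded, rRNA-depleted total RNA libraries. The study reported some degradation of this RNA, whereas RNA of hippocampal cells captured as slide controls was intact. The authors trimmed reads with Trimmomatic, ran STAR 2.7.8a against mRatBN7.2, obtained transcript counts from the expectation/maximization (E/M) model of Partek Flow, and scaled each pup by its median ratio size factor. What was deposited is therefore a scaled signal (normalized counts) rather than whole read counts. The deposited table also holds the authors' DESeq2 comparison (p-values, FDR and fold changes), which was not used. By that comparison the study reported genes that passed its FDR threshold, among them *Tubb2b*, *Tubb4a*, *Tbcb* and *Tpgs2*, all higher with PTU. The absence of calls given above is therefore that of limma on the log2 scale.

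Rows with a mean of at least 10 (14606 of 14716) were transformed to log2(normalized count + 1), a scale that understates changes of low transcripts, and compared with limma 3.58.1 in R 4.3.3 (variance trend, Benjamini-Hochberg adjustment over all rows, threshold 0.05). Single values were compared with an exact two-sided permutation test, and correlations used 100000 permutations within groups (Python 3.11.15, scipy 1.17.1). Depth came from the spacing of low values within each pup. Of values from 20 to 150, 88.1 to 89.7% were whole multiples of that spacing (tolerance 0.02), under the 95% set for recovering reads, so no count model was used.

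On simulated data with 50 rows each changed by 0.5, 1, 2 and 4 (log2), this comparison recovered 18, 43, 46 and 50, and called 12 of 14406 unchanged rows. Genes with the smallest 2 unadjusted p-values of each list were named, with all members and the nearest gene to each. The members, lists and tests were chosen with earlier results of these data known. Shares of each isotype per transcript length, which were planned, could not be computed, as transcript lengths were not used here. Promoter windows came from RefSeq (GRCr8, whose coordinates differ from those of the authors' build), in which all 10 listed names matched. Alternatives were other pseudocounts, filters, scalings, weights, covariates, a replicate block and each pup left out in turn. List counts and ratios without PTU pup 1, and list counts with covariates, were added after the data were seen.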

Additional observations from a re-analysis of the deposited data

Results flagged for a closer look

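Of 18 groups of pups examined (9 members in 2 groups), 1 held a pup that stood far from the rest, where chance marks about 1 in 20 such groups. PTU pup 1 had 502 normalized counts of *Tuba4a*, and the nearest of the other PTU exposed pups had 88.2, so that this gap took up 0.887 of the whole range of the group. The same pup had the highest neuron marker score, 1.62.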

How the results depend on the processing

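No member reached an adjusted p of 0.05 in any setting; the lowest was 0.0679 (*Tubb4a*, with the replicate block). The log2 fold changes of *Tuba1b*, *Tuba1c*, *Tubb2a*, *Tubb2b*, *Tubb3*, *Tubb4a* and *Tubb5* kept their sign in all 26 settings, with *Tuba1b* between 0.26 and 0.56, *Tubb2b* between 0.21 and 0.49, *Tubb3* between 0.24 and 0.53, and *Tubb4a* between 0.27 and 0.79, but *Tuba1c* (-0.31 to -0.02), *Tubb2a* (0.06 to 0.40) and *Tubb5* (0.05 to 0.38) came close to 0. *Tuba4a* ranged from -0.03 (neuron score as a covariate) to 1.04 (choroid plexus score), and *Tubb4b* turned to 0.03 with the choroid plexus score and to 0.14 with the same total for every pup, which moved the median of all rows to 0.20 and that of the members to 0.49, and gave 1584 rows higher and 81 lower at an unadjusted p under 0.05. The 0 rows with an adjusted p of at most 0.05 became 40 with pups weighted by quality and 4 with the choroid plexus score, and ranged from 0 to 179 with each pup left out (179 without PTU pup 2, 7 without control pup 6). The 4 members under an unadjusted p of 0.05 became 2 with the neuron score and 1 with the choroid plexus score, and ranged from 2 to 5 with each pup left out. Over the whole table, the 1185 rows higher at that level became 796 and 1014 with these scores, and ranged from 894 to 1502 with each pup left out. Under the neuron and the choroid plexus score the stathmins under 0.05 were 1 and 1, the folding and modification genes 3 and 3, and the microtubule-associated proteins 0 and 0; without PTU pup 1 the latter 2 lists had 4 and 1. The ratio of *Tuba4a* to *Tuba1b* turned from 0.23 to -0.23 (log2) without PTU pup 1. The causes were not tested. The replicate block gave 18 called rows and 4 members under 0.05; numbers are not shared litters, 1 of 6 PTU exposed pups correlated best with the control of its number, and the block changed no call of a member. At the estimated depths *Tuba4a*, with 34.4 to 95.7 normalized counts in controls, rests on the fewest reads of the family.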
